A study of Mus musculus with 24 samples.

Results

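The 10 genes described here are mouse genes that NF-kB or STAT3 signalling is known to switch on or that belong to these pathways: *Icam1*, *Pim1*, *Nfkbia*, *Nfkbiz*, *Tnfaip3*, *Bcl3*, *Socs3*, *Stat3*, *Il6* and *Cebpd*. They were chosen by gene symbol, and all 10 were found among the 23420 genes of each of 4 tables of bulk RNA-Seq from 24 mouse lungs. The 4 tables compared mutant with control left lung lobes, with 3 lungs in each of 8 groups. Mutants were *Vangl2 f/f; Sox9Cre/+* or *Ror2 f/f; Sox9Cre/+*, collected at postnatal day (P) 2 or P5, and each table had controls of its own age, which the genotype labels call WT. The controls of the *Vangl2* comparison are titled Control(Vangl1/2). Cre came from the *Sox9* locus, which acts in the SOX9+ distal epithelium. RNA came from the complete lobe with all its cell types, so fewer cells of a type and less RNA per cell cannot be told apart. For some mutants (*Vangl2* at P5, *Ror2* at P2) the genotype entry names the other gene, and the sample titles were followed.

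NF-kB is a family of transcription factors held in the cytoplasm by inhibitors until a cytokine such as tumour necrosis factor or interleukin-1 triggers their release. STAT3 is activated by Janus kinases below the shared receptor subunit gp130 when interleukin-6 or a related cytokine binds. Both pathways switch on their own brakes, among them *Nfkbia*, *Tnfaip3* and *Socs3*, and in the lung both take part in the response to injury and infection and in the recruitment of white blood cells.

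By the GENCODE M21 annotation (GRCm38), all 10 are protein-coding genes. *Nfkbia*, the inhibitor IkB-alpha, lies at chr12:55489410-55492647 on the minus strand, and *Tnfaip3*, the ubiquitin-editing enzyme A20, at chr10:19000910-19015657 on the minus strand. *Socs3*, the suppressor of gp130 signalling, lies at chr11:117966079-117970047 on the minus strand, and *Stat3* at chr11:100885098-100939540 on the minus strand. *Icam1*, the adhesion molecule that white blood cells bind on endothelium and epithelium, lies at chr9:21015985-21028817 on the plus strand. *Il6*, the cytokine, lies at chr5:30013114-30019981 on the plus strand.

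Promoter sequence is shown for members whose window holds a STAT or kappaB motif before the RefSeq start, since these are the letters through which the pathways are known to act. RefSeq windows (GRCm38.p6, 250 bases before to 50 after the start) were matched by symbol for 8 of the 10 genes, all but *Nfkbiz* and *Cebpd*. A gene was counted if any of its windows held the motif. The STAT motif TTCNNNGAA, which reads the same on both strands, was found in 2 of the 8 (*Icam1* and *Socs3*). It was found in 9.55% of all 27025 genes with a window. The kappaB consensus of 10 letters was found on either strand in 4 of the 8 (*Nfkbia*, *Tnfaip3*, *Bcl3* and *Il6*) and in 9.55% of all genes. On the gene's own strand alone it was in 3 of the 8 and in 6.72% of all genes. The C/EBP motif TTGCNNAA was found on either strand in 1 of the 8 (*Il6*, on the other strand) and in 12.2% of all genes. In *Bcl3* the kappaB match begins 2 bases after the start position and is not shown. Each sequence runs 5′ to 3′ on the gene's strand, with the STAT motif in capitals in the first pair and the kappaB consensus in capitals in the rest.
Icam1, chr9:21015840-21015939, plus strand: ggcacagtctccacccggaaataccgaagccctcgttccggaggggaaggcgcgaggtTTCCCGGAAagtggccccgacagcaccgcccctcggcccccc
Socs3, chr11:117969502-117969531, minus strand: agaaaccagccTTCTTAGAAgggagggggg
Nfkbia, chr12:55492648-55492747, minus strand: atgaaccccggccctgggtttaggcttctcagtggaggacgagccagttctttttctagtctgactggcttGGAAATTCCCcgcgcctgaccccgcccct
Tnfaip3, chr10:19015517-19015546, minus strand: tgactcacgcgGGGACACCCCggggcggga
Tnfaip3, chr10:19015411-19015440, minus strand: gtgactggaatttccatcGGAAATCCCCct
Il6, chr5:30013014-30013113, plus strand: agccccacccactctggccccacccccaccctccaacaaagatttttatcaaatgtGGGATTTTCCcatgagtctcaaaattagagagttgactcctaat
The RefSeq starts of *Socs3* and *Tnfaip3* lie within the GENCODE gene spans given above, so their stretches are upstream by RefSeq only and are kept to 30 bases around each match. A match describes these letters only, and no binding was measured.

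Values are normalized counts, that is, reads counted on a gene divided by a size factor of the lung. In the 20 recovered lungs other than *Ror2* P5 control replicate 1, between 16178031 and 21546673 reads fell on genes. That control lung, with 13823693, had no reads on most of chromosomes 5 to 9 and X, so it was left out for genes there, which here are *Icam1*, *Bcl3* and *Il6*. The targeted *Vangl2* was lower in the mutants at P2 (log2 fold change -0.39, SE 0.176, adjusted p 0.241) and at P5 (-1.0, SE 0.18, adjusted p 0.0604). *Ror2* was at -0.38 (SE 0.157, adjusted p 0.25) at P2 and -0.16 (SE 0.202, adjusted p 0.692) at P5, so the whole lobes did not show a called loss of the targeted gene. The lung label was met by alveolar type II markers, all 9 of which were above 0. Mutant and control were compared within each table with limma on log2(normalized count + 1), with p-values adjusted over all genes tested. Fold changes on this scale understate the change of low genes such as *Il6*. Where only a permutation test over single values applies, 0.1 is the smallest p that 3 lungs against 3 allow.

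The comparison of *Vangl2 f/f; Sox9Cre/+* with control lungs at P2 asks what the loss of the polarity gene in the epithelium does to the transcriptome. All 10 genes had a higher estimate in the mutants, with a median log2 fold change of 1.35 beside 0.00 over all tested genes, and 9 of the 10 had every mutant lung above every control lung, as did 14.6% of the 17448 tested genes. None of the 10 passed at an adjusted p of 0.05 in limma, where 3.59% of genes did. At an unadjusted p under 0.05, 8 of the 10 did and 22.5% of genes did (11.7% of genes as higher). edgeR called 1 of the 10 (*Cebpd*, adjusted p 0.0429), where 3.67% of genes were called. DESeq2 called 6 (*Icam1*, *Pim1*, *Nfkbia*, *Nfkbiz*, *Stat3* and *Cebpd*), where 11.5% of genes were called, and it gave no adjusted p for *Bcl3* and *Il6*.

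**Figure D1:**
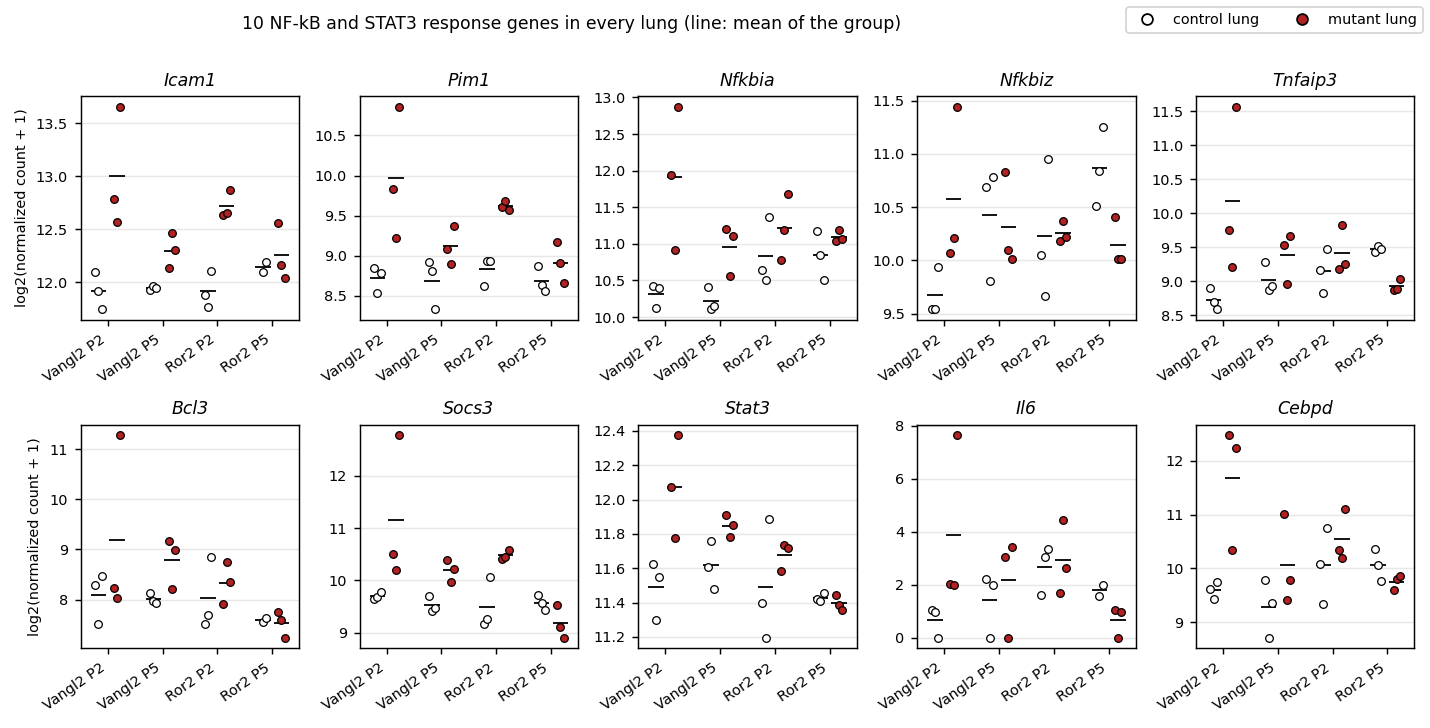
Level of each of the 10 genes in every lung, as log2(normalized count + 1) on the vertical axis, for the 4 comparisons on the horizontal axis. White points are control lungs, red points are mutant lungs (replicates 1 to 3 from left to right) and lines are group means. In *Vangl2* P2, mutant replicate 3 is the highest lung for 9 of the 10 genes.

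On the NF-kB side at P2, *Nfkbia* was at 1368, 1119 and 1352 in the *Vangl2* controls and at 3927, 1940.3 and 7519 in mutants 1, 2 and 3. The lungs did not overlap, and the log2 fold change was 1.60 (SE 0.42, adjusted p 0.0776). *Tnfaip3* was at 476, 412 and 383 in the controls and at 865, 591 and 3043 in the mutants. All mutants were above all controls, with the third far above the others, and the log2 fold change was 1.46 (SE 0.52, adjusted p 0.159). *Nfkbiz*, which encodes the nuclear inhibitor-like protein IkB-zeta, was at 747, 744 and 979 in the controls and at 1074, 1188 and 2789 in the mutants, a log2 fold change of 0.90 (SE 0.34, adjusted p 0.17). *Bcl3*, which encodes a nuclear partner of the NF-kB subunits p50 and p52, was at 314, 182 and 355 in the controls and at 301, 262 and 2492 in the mutants. Mutants 1 and 2 lay within the control range, and the estimate of 1.09 (SE 0.79, adjusted p 0.449) rested on the third lung.

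Of the STAT3 side, *Stat3* itself was at 3155, 2519.9 and 2993 in the *Vangl2* controls at P2 and at 4303, 3502 and 5317 in the mutants. This was the smallest of the 10 estimates, 0.58 (SE 0.16, adjusted p 0.0928), with no overlap. *Socs3* was at 798, 823 and 873 in the controls and at 1456, 1171 and 7012 in the mutants (log2 fold change 1.46, SE 0.59, adjusted p 0.196). *Pim1*, a kinase that promotes cell survival, was at 460.3, 369.9 and 439 in the controls and at 913, 596 and 1857 in the mutants (1.25, SE 0.36, adjusted p 0.10). Both were above the controls in every mutant, again with the third lung highest. *Il6* was at 1.05, 0.948 and 0 in the controls, at 3.10 and 2.95 in mutants 1 and 2 and at 202 in mutant 3. The estimate of 3.23 (SE 1.42, adjusted p 0.230) rests on single reads in all lungs but 1.

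*Cebpd*, which encodes the acute-phase transcription factor C/EBP-delta, had a different order. It was at 782, 686 and 853 in the *Vangl2* controls at P2 and at 5716, 1293 and 4828 in the mutants, so mutant 1 was highest. The log2 fold change was 2.09 (SE 0.49, adjusted p 0.0611). *Icam1* was at 4382, 3862 and 3434 in the controls and at 7049, 6099 and 12938 in the mutants. Its log2 fold change of 1.09 had an SE of 0.26 and an adjusted p of 0.0633, without overlap.

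Mutant replicate 3 of *Vangl2* P2 held the highest value of 9 of the 10 genes. It was over 2-fold above the mean of mutants 1 and 2 for 7 of them, as it was for 4.83% of the 17448 genes. For *Bcl3* the ratio was 8.86, for *Socs3* 5.34 and for *Tnfaip3* 4.18, while for *Stat3* it was 1.36 and for *Cebpd* 1.38. Without this lung the median of the 10 log2 fold changes was 0.76 in place of 1.35, and 9 of the 10 still had both mutants above all controls, as did 25.4% of genes. At an unadjusted p under 0.05 it was 8 of the 10, and 32.2% of genes. 5 of the 10 then passed in limma, where 13.2% of genes did: *Icam1* (log2 fold change 0.76, adjusted p 0.0151), *Pim1* (0.81, 0.0408), *Nfkbia* (1.11, 0.0395), *Tnfaip3* (0.76, 0.0404) and *Socs3* (0.65, 0.0194). *Bcl3* was at 0.04 without it (adjusted p 0.941). Without mutant replicate 2, *Cebpd* passed (adjusted p 0.00596), where 0.166% of genes did.

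**Figure D2:**
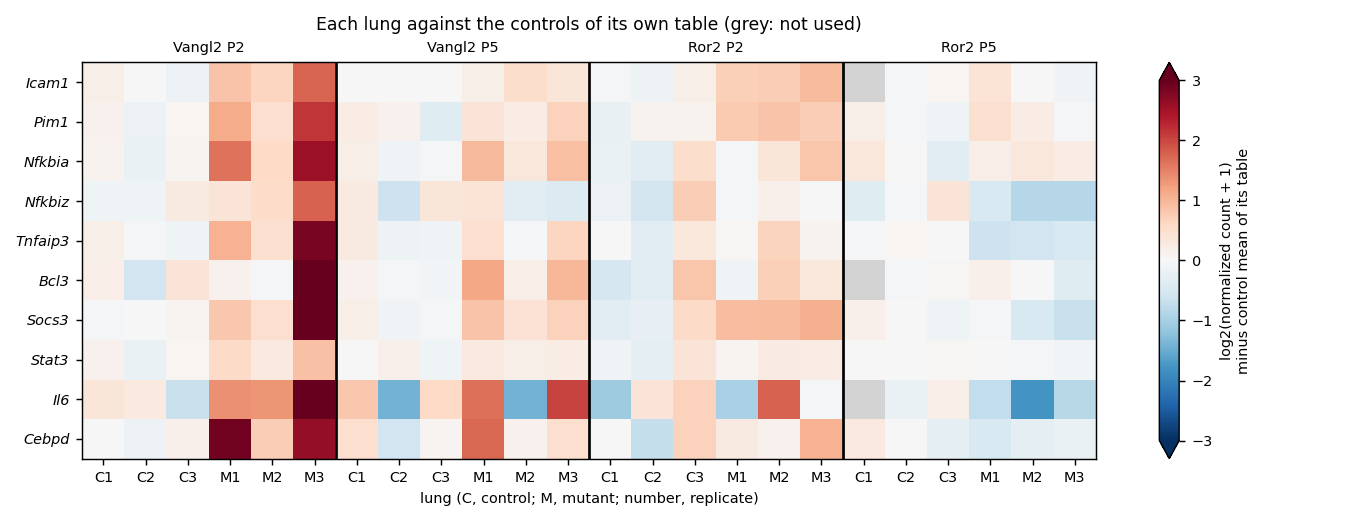
Each lung (columns, C for control and M for mutant) against the mean of the controls of its own table, in log2 units, for the 10 genes (rows); grey cells were not used and colours stop at 3 in either direction. Mutant 3 of *Vangl2* P2 is dark red for *Tnfaip3*, *Bcl3*, *Socs3* and *Il6*, and mutant 1 for *Cebpd*.

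The genes that feed or carry the same signals were taken from lists. At *Vangl2* P2, 1 of 34 NF-kB pathway genes rose (*Irak3*, a brake on Toll-like receptor signalling, log2 fold change 1.05, SE 0.212, adjusted p 0.0410) and 0 fell, with a list median of 0.29. Of 34 gp130, Janus kinase and STAT pathway genes, 1 rose (*Csf3r*, the receptor of granulocyte colony-stimulating factor, 1.00, which is also among the neutrophil markers) and 0 fell, with a median of 0.22. Of 14 cytokine receptors of NF-kB, 1 rose (*Il1r2*, the decoy receptor of interleukin-1, 3.24) and the median was 0.37. Of 28 other NF-kB targets, 3 rose (*F3*, tissue factor, 1.42; *Bcl2a1b*, a survival protein, 1.21; *Gadd45b*, a stress response gene, 0.86) and the median was 0.87. Of 21 tested other STAT3 targets, 7 rose and 1 fell. The ones that rose were led by the acute-phase genes *Saa3* (5.89), *Lcn2* (2.77), *Lrg1* (2.41) and *Hp* (1.72), and the list median was 0.58. *Ccnd1*, the cell cycle gene cyclin D1, was the one that fell, by 0.73, and is named after its value was seen. Among 19 immediate early and stress genes 1 rose (*Klf6*, 0.84), and among 10 relatives of *Pim1*, *Icam1* and *Cebpd* none passed in limma, with a median of 0.39. Against these counts stand the 1.5% of all genes called higher and the 2.09% called lower.

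*Saa3* was at 51.6, 59.8 and 29.7 in the *Vangl2* P2 controls and at 5774, 1033 and 3430 in mutants 1, 2 and 3. Mutant 1, not mutant 3, was highest, as it was for *Cebpd*. *Lcn2*, which encodes the iron-carrier binding protein lipocalin-2, was at 1638, 1031 and 1037 in the controls and at 17110.0, 3036 and 10610.0 in the mutants.

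None of 18 tested upstream ligands passed in limma at *Vangl2* P2, and the list median was 0.27. Their summed normalized count was between 2081 and 2407 in the controls, 2700 and 2565 in mutants 1 and 2, and 11370 in mutant 3. *Il33*, an epithelial alarm cytokine and the ligand with the highest mean, had a log2 fold change of 0.94 (adjusted p 0.292). *Il1b*, which encodes interleukin-1 beta, was at 161, 94.8 and 153 in the controls and at 138, 234 and 2151 in the mutants. *Tnf*, which encodes tumour necrosis factor, was at 33.7, 22.8 and 19.2 in the controls and at 57.9, 43.3 and 560.2 in the mutants. Both were named after their values were seen.

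Neutrophil markers were also higher in the mutants at *Vangl2* P2. 9 of 11 rose and 0 fell, led by *Mpo* (log2 fold change 2.97), *Mmp8* (1.64), *Ltf* (1.61) and *Cxcr2* (1.51). Their sum was between 3858 and 5930 in the controls and was 11530, 12340 and 14690 in mutants 1, 2 and 3. Mutant 3 was highest but did not stand far apart, and mutant 2 was above mutant 1. None of the 11 was at 0 in all lungs. Without mutant 3 the count was again 9 of 11, but limma then called 1074 of the 17448 genes higher, against 262 with that lung. Pan-leukocyte markers had a sum between 5344 and 5991 in the controls, 5782 and 6378 in mutants 1 and 2 and 8853 in mutant 3, with 0 of 7 called by limma. Macrophage markers had a sum between 4749 and 5367 in the controls and between 5953 and 7417 in the mutants (1 of 9 rose). Club and airway markers had a median of 1.85 (0 of 8 called), alveolar type II markers rose in 3 of 9, and fibroblast and smooth muscle markers fell in 2 of 10. Genes that respond to glucocorticoids, a list to which *Cebpd* was not assigned, had positive estimates in 12 of 12 with a median of 1.30 and 0 called, and a sum of 78580 in mutant 1 against 29960 and 33330 in the other mutants. Their part in the values of the 10 genes was not tested.

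**Figure D3:**
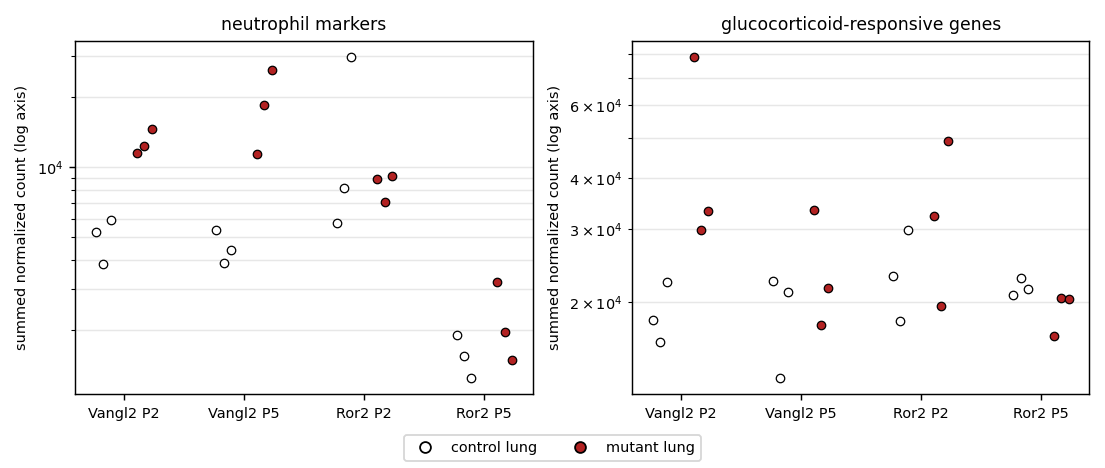
Summed normalized count, on log axes, of the neutrophil markers (left) and the glucocorticoid-responsive genes (right) in every lung of the 4 comparisons. White points are control and red points mutant lungs, replicates 1 to 3 from left to right. In *Ror2* P5 the sums cover fewer genes (7 of each list), so levels compare only within a table; control 3 of *Ror2* P2 is highest for the neutrophil markers and mutant 1 of *Vangl2* P2 for the glucocorticoid-responsive genes.

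At P5 the *Vangl2* mutants had higher estimates for 9 of the 10 genes, with a median log2 fold change of 0.55 beside 0.00 over all 17410 tested genes. 5 of the 10 (*Icam1*, *Nfkbia*, *Bcl3*, *Socs3* and *Stat3*) had all mutants above all controls, as did 13.2% of genes. None of the 10 passed in limma, where 0.563% of genes did, and 4 of the 10 had an unadjusted p under 0.05, where 18.8% of genes did. The labels give a replicate number and no pairing, but same-numbered lungs of this table deviated together. This was read from the same values that the fits test, so the block is not independent evidence. With the replicate block 3 of the 10 passed, where 8.95% of genes did. These were *Socs3* (adjusted p 0.0193), *Nfkbia* (0.0219) and *Cebpd* (0.0340). With all 12 lungs of P5 in 1 limma fit *Nfkbia* (adjusted p 0.0435) and *Socs3* (0.0407) passed, where 5.95% of genes did.

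*Socs3* was at 834, 686 and 706 in the *Vangl2* P5 controls and at 1333, 998 and 1197 in mutants 1, 2 and 3. The groups did not overlap, and the log2 fold change was 0.66 (SE 0.16, adjusted p 0.0987 without the block). *Nfkbia* was at 1355, 1100.3 and 1138 in the controls and at 2349, 1511 and 2215 in the mutants, a log2 fold change of 0.74 (SE 0.19, adjusted p 0.115 without the block). *Bcl3* was at 278, 250.4 and 242 in the controls and at 573, 294 and 508 in the mutants. Here the second mutant lung was only just above the controls, and the log2 fold change was 0.78 (SE 0.25, adjusted p 0.168). *Cebpd* was at 878, 417 and 654 in the controls and at 2060.2, 677 and 883 in the mutants, with overlap and a log2 fold change of 0.79 (SE 0.42, adjusted p 0.357 without the block).

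*Icam1* was at 3889, 4003 and 3952 in the *Vangl2* P5 controls and at 4487, 5655 and 5058 in the mutants (log2 fold change 0.35, SE 0.14, adjusted p 0.222). *Stat3* was at 3120.1, 3468 and 2855 in the controls and at 3853, 3518 and 3690.5 in the mutants (0.23, SE 0.13, adjusted p 0.384). For both genes all mutants were above all controls, though by less than 2-fold. For *Stat3* the groups nearly touched, with mutant 2 (3518) only just above control 2 (3468). *Pim1* (0.43, SE 0.21, adjusted p 0.304) and *Tnfaip3* (0.36, SE 0.22, adjusted p 0.408) overlapped. *Nfkbiz* was at 1648, 892 and 1757 in the controls and at 1824, 1094 and 1035 in the mutants, the single negative estimate (-0.11, SE 0.31, adjusted p 0.886). *Il6* was at 3.65, 0 and 3.02 in the controls and at 7.33, 0 and 9.83 in the mutants, so no lung held the level of the 1 high lung of P2.

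Around these genes at *Vangl2* P5, 4 of 21 tested other STAT3 targets rose and 0 fell: *Saa3* (log2 fold change 4.28), *Lrg1* (2.93), *Lcn2* (2.19) and *Hp* (1.32). *Saa3* was at 60.2, 72.9 and 28.2 in the controls and at 1147, 992 and 841 in the mutants. Of 14 cytokine receptors 1 rose, *Il1rn* (2.04), which encodes the antagonist of the interleukin-1 receptor, and of 12 glucocorticoid-responsive genes 1 rose, *Zbtb16* (2.84), a transcription factor. None of 34 NF-kB pathway, 34 gp130 pathway, 28 other NF-kB target, 19 upstream ligand and 10 relative genes passed in limma, with medians of 0.20, 0.12, 0.82, 0.80 and 0.32. Immediate early and stress genes had a median of -0.24, with a positive estimate in 8 of 19 and none called. Of all genes, 0.534% were called higher. Without mutant 3 limma called 0 genes of any list and 0 of all genes, with 13.8% of genes at an unadjusted p under 0.05. Of the 10 genes, 5 had both remaining mutants above all controls, as did 16.2% of genes. Neutrophil markers had sums between 3880 and 5387 in the controls and of 11440, 18520 and 26290 in mutants 1, 2 and 3 (4 of 11 rose), and pan-leukocyte markers between 4508 and 5245 against 8997, 7964 and 19310 (2 of 7 rose). Mutant 3 also had a lymphocyte marker sum of 11200, where the other lungs had at most 1459, and it was the highest lung for 3 of the 10 genes (*Pim1*, *Tnfaip3* and *Il6*). Macrophage markers had a positive estimate in 9 of 9, with sums between 4157 and 5189 in the controls and between 7291 and 7463 in the mutants. Club and airway markers had a median of 3.05, endothelial markers of -0.49 (1 of 10 positive) and fibroblast and smooth muscle markers of -0.69 (1 of 10 positive), and limma called none of these 4 lists' genes. The part of these cells in the 10 genes was not tested.

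**Figure D4:**
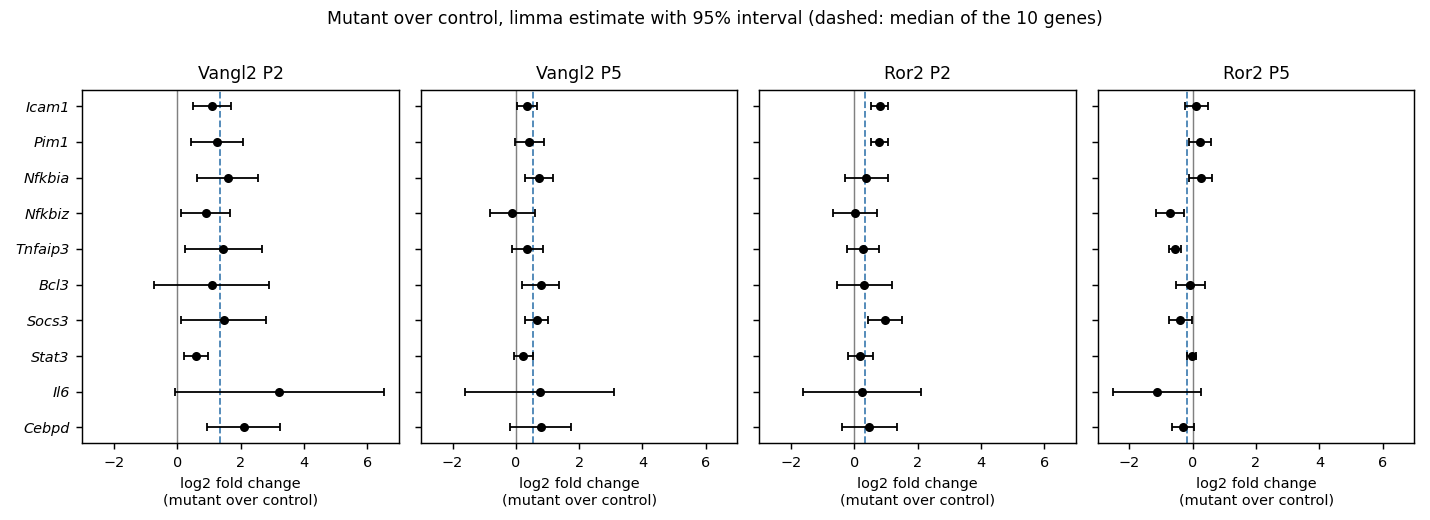
Log2 fold change of the 10 genes (mutant over control, horizontal axis) in the 4 comparisons. Points are limma estimates from 3 lungs a group (2 controls for *Icam1*, *Bcl3* and *Il6* in *Ror2* P5), bars are 95% intervals and dashed lines the medians of 1.35, 0.55, 0.35 and -0.19. Intervals leave out 0 for 8 of the 10 genes in *Vangl2* P2, all but *Bcl3* and *Il6*. In *Vangl2* P5 they do for 4 (*Icam1*, *Nfkbia*, *Bcl3* and *Socs3*) and in *Ror2* P2 for *Icam1*, *Pim1* and *Socs3*. In *Ror2* P5 those of *Nfkbiz*, *Tnfaip3* and *Socs3* lie on the negative side, with *Socs3* reaching up to -0.02.

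The *Ror2 f/f; Sox9Cre/+* comparison puts the same question to a receptor of the polarity pathway. At P2, all 10 genes had a positive estimate with a median of 0.35, beside -0.01 over all 17541 tested genes, and 3 of the 10 (*Icam1*, *Pim1* and *Socs3*) had all mutants above all controls, as did 13.4% of genes. None of the 10 passed in limma, where 0.0% of genes did. These 3 had an unadjusted p under 0.05, as did 19.3% of genes, and *Icam1* and *Pim1* ranked 7 and 9 by p among all genes. edgeR called 0 of the 10 and 0 of all genes (19.1% of genes at an unadjusted p under 0.05). DESeq2 called those 3 of the 10, where 4.58% of genes were called (*Icam1* 1.45e-06, *Pim1* 1.71e-05, *Socs3* 0.0118, adjusted).

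*Icam1* was at 3762, 3489.8 and 4401 in the *Ror2* P2 controls and at 6369.6, 6449 and 7492 in the mutants. The log2 fold change was 0.80 (SE 0.11, adjusted p 0.203). *Pim1* was at 392, 489 and 489 in the controls and at 778, 823 and 761 in the mutants (0.79, SE 0.11, adjusted p 0.203). *Socs3* was at 573, 614 and 1074 in the controls and at 1365, 1391 and 1522 in the mutants (0.98, SE 0.23, adjusted p 0.203). For these 3 genes the mutants lay close together and above every control.

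The other 7 genes overlapped between *Ror2* P2 groups. *Nfkbia* was at 1592, 1450.3 and 2642 in the controls and at 1756, 2344 and 3275 in the mutants (log2 fold change 0.38, SE 0.28). *Cebpd* was at 1082, 648 and 1729 in the controls and at 1289, 1163 and 2185 in the mutants (0.48, SE 0.37). The estimates were 0.27 for *Tnfaip3*, 0.31 for *Bcl3*, 0.19 for *Stat3*, 0.25 for *Il6* and 0.03 for *Nfkbiz*, with adjusted p between 0.469 and 0.961 for the 7. *Nfkbiz* was at 1063, 812 and 1982 in the controls and at 1159, 1323 and 1194 in the mutants. For *Nfkbiz*, *Bcl3* and *Stat3* the highest of the 6 lungs was control 3.

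Control replicate 3 of *Ror2* P2 also had a neutrophil marker sum of 29900, where the other 5 lungs lay between 5744 and 9224, and a pan-leukocyte sum of 10440 where the others lay between 4172 and 5411. Without it, 8 of the 10 genes had an unadjusted p under 0.05, where 17.1% of genes did, and 9 of the 10 had all mutants above both controls, where 20.2% of genes did. The median log2 fold change was then 0.69, and *Socs3* was at 1.26 (SE 0.094, adjusted p 0.146). None of the 10 passed in limma without it, where 0.0% of all genes did, so this count does not set the 10 genes apart. Without mutant replicate 2, *Icam1* (adjusted p 0.0374) and *Pim1* (0.0419) passed, where 4.84% of genes did. The part of the cells behind these markers was not tested.

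None of the genes of the 9 pathway lists passed in limma at *Ror2* P2, where 0.0% of all genes did, so this does not show the lists to be unchanged. The medians were 0.14 for the NF-kB pathway, 0.10 for the gp130 pathway, 0.26 for other NF-kB targets, 0.35 for other STAT3 targets, 0.37 for upstream ligands and 0.53 for glucocorticoid-responsive genes, 12 of 12 of which had a positive estimate. Immediate early and stress genes had a median of 0.44 (17 of 19 positive). Their sums were between 44950.0 and 49770.0 in the controls and between 50460.0 and 75880.0 in the mutants. The lowest mutant sum was thus only just above the highest control sum. *Saa3*, which led the list in *Vangl2* lungs, was at 83.5, 49.6 and 391 in the controls and at 561, 986 and 50.4 in the mutants.

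At P5 the *Ror2* lungs had a negative estimate for 7 of the 10 genes, with a median of -0.19 beside 0.00 over all 17179 tested genes. *Nfkbiz*, *Tnfaip3* and *Il6* had every mutant below every control used, as did 14.3% of genes, and 0 of the 10 had every mutant above, as did 15.6% of genes. None of the 10 passed in limma, where 0.122% of genes did. *Nfkbiz*, *Tnfaip3* and *Socs3* had an unadjusted p under 0.05, where 18.4% of genes did (8.35% as lower).

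*Tnfaip3* was at 690.2, 736 and 710.5 in the *Ror2* P5 controls and at 465, 474 and 522 in the mutants. The 2 groups were narrow and apart, and the log2 fold change was -0.55 (SE 0.081, adjusted p 0.0694). Without mutant replicate 3 it passed (adjusted p 0.0242, where 3.81% of genes did). *Nfkbiz* was at 1457, 1830.5 and 2444 in the controls and at 1357, 1036 and 1035 in the mutants (-0.72, SE 0.19, adjusted p 0.149). *Socs3* was at 843, 760.1 and 692 in the controls and at 736, 556 and 479 in the mutants, with overlap (-0.39, SE 0.16, adjusted p 0.249). *Il6* was at 2.01 and 2.98 in controls 2 and 3 and at 1.06, 0 and 0.954 in the mutants (-1.12, SE 0.58, adjusted p 0.347), levels of a few reads. The value deposited for *Il6* in control 1 was 23.3. *Il6* lies on chromosome 5 before the first gene without reads in that lung, and with this value the estimate was -2.06 (adjusted p 0.242).

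For the remaining genes at *Ror2* P5 the 95% intervals included 0, though most were too wide to show that a gene lay near its controls. *Stat3* was at 2741, 2718 and 2807 in the controls and at 2789.8, 2672.5 and 2622 in the mutants, and its 95% interval was from -0.17 to 0.10. *Nfkbia* was at 2322, 1849.6 and 1448 in the controls and at 2104, 2334 and 2148 in the mutants (0.25, 95% interval -0.11 to 0.62). *Pim1* had an interval from -0.12 to 0.57, *Cebpd* from -0.65 to 0.03, and *Icam1* (-0.26 to 0.48) and *Bcl3* (-0.53 to 0.37) were compared with 2 controls. None of the genes of the 9 pathway lists passed in limma, where 0.122% of all genes did. The medians of the NF-kB and gp130 pathways were 0.03 and 0.07. Immediate early and stress genes had a median of -0.27, with a positive estimate in 3 of 19. The acute-phase STAT3 targets had positive estimates that did not pass. *Saa3* was at 34.1 and 28.8 in controls 2 and 3 and at 589, 566 and 104 in the mutants (log2 fold change 3.34, SE 0.73, adjusted p 0.128), and the estimates were 1.49 for *Hp*, 1.33 for *Lrg1* and 0.60 for *Lcn2*. These 4 genes were thus on the other side of 0 from 7 of the 10. Club and airway markers had a median of 1.92, with 0 of 7 called. Neutrophil markers had a median of 0.48, and the sums of the 7 that could be summed overlapped, between 1245 and 1902 in the controls and between 1483 and 3207 in the mutants.

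**Figure D5:**
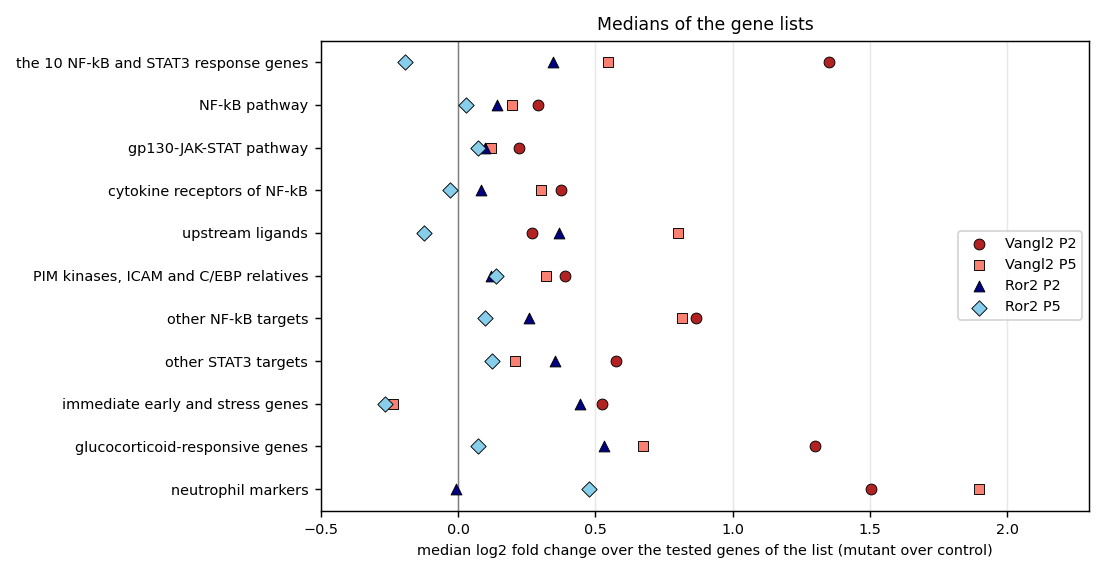
Median log2 fold change (mutant over control) of the 10 genes, of the 9 pathway and response lists and of the neutrophil markers, with 1 symbol for each comparison. The 10 genes and all lists but the upstream ligands and the neutrophil markers have their highest median in *Vangl2* P2. There the 10 genes are at 1.35, the glucocorticoid-responsive genes at 1.30 and the neutrophil markers at 1.51. The NF-kB and gp130 pathway lists lie between 0.03 and 0.29 over all comparisons.

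The mutant-control differences were then compared between genotypes and ages, with the lungs of 2 tables and their own controls in 1 limma fit. None of the 10 genes passed in any of the 4 tests, in which 0, 2, 0 and 0 of all genes passed. At P2 the *Vangl2* difference exceeded the *Ror2* difference at an unadjusted p under 0.05 for 1 of the 10, *Cebpd* (by 1.62, SE 0.71, p 0.0420, adjusted p 0.946), where 4.6% of genes did so in either direction. At P5 it did for 3 of the 10, where 4.72% of genes did: *Socs3* (by 1.05, SE 0.23, p 0.000691, adjusted p 0.376), *Tnfaip3* (0.91, SE 0.24, p 0.00271, adjusted p 0.703) and *Bcl3* (0.86, SE 0.35, p 0.0326, adjusted p 0.993). At both ages all 10 estimates of *Vangl2* minus *Ror2* were positive.

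Between ages, the difference at P5 was below that at P2 for all 10 genes in both genotypes. In *Ror2* lungs 4 of the 10 had an unadjusted p under 0.05, where 9.5% of genes did. They were *Socs3* (-1.37, SE 0.30, p 0.000820), *Icam1* (-0.69, SE 0.20, p 0.00611), *Tnfaip3* (-0.82, SE 0.25, p 0.00720) and *Pim1* (-0.57, SE 0.20, p 0.0139), each with an adjusted p of 0.454. In *Vangl2* lungs 1 did, *Icam1* (-0.73, SE 0.32, p 0.0390, adjusted p 0.577), where 8.45% of genes did. These tests share lungs with one another, so their directions are not independent.

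Levels per kilobase of exon placed the 10 genes in a similar order in the *Vangl2* and *Ror2* controls. In the *Vangl2* P2 controls *Icam1* was at 893 normalized counts per kilobase and *Nfkbia* at 795, followed by *Stat3* (303), *Socs3* (288), *Cebpd* (207), *Nfkbiz* (164), *Pim1* (126), *Bcl3* (115), *Tnfaip3* (58.6) and *Il6* (0.275). In the *Ror2* P5 controls *Nfkbia* (1163) and *Icam1* (1039) were again on top, *Nfkbiz* was at 381, and *Il6* (1.03) was last. *Stat3* and *Cebpd* were both at 289 there, and their order could not be told from the spread of the lungs.

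Within groups, the 10 genes tended to be high in the same lungs. Deviations of log2 values from the group mean had a positive Pearson's r for 45 of 45 gene pairs over the 24 lungs (median 0.699), and for 43 of 45 without mutant 3 of *Vangl2* P2 (median 0.460). The genes of a pair share lungs and size factors, and these values are a description. They were not computed for pairs of other genes, so they do not set the 10 genes apart. Of 14581 other genes with a mean of at least 10 in every table, those whose deviation from the control mean ran closest to the mean of the 10 were *Nfkb2* (r 0.946), *Birc3* (0.945), *Zc3h12a* (0.933), *Selp* (0.911) and *Relb* (0.903). Without mutant 3 of *Vangl2* P2 they were *Il34* (0.903), *Zc3h12a* (0.893), *Birc3* (0.880), *Hk2* (0.879) and *Rhog* (0.874). *Zc3h12a* and *Birc3* were among the nearest 5 both with and without that lung.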

How the data were processed

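RNA from left lung lobes of mice was sequenced, and the authors deposited 4 tables of gene-level normalized counts, a signal per lung and gene in which reads were divided by size factors. The submitters' processing notes name DESeq2 and mm10; the aligner, counter and annotation are not given in the sources used here. Values of 21 of the 24 lungs were whole multiples of 1 read (100% of values within 0.02 of a whole number), so reads were recovered in those 21 lungs, among them all 12 lungs of P2. Both P5 tables hold lungs without recovered reads, 3 in all. Groups came from the sample titles. Mutant and control were compared within each table of 6 lungs by limma 3.58.1 (R 4.3.3, eBayes with trend) on log2(normalized count + 1), for genes at 1 or more in at least 3 lungs, with Benjamini-Hochberg adjustment over all tested genes and a threshold of 0.05. P-values measure the spread between these lungs. Differences between genotypes or ages were tested in 1 fit of 12 lungs. edgeR 4.0.16 and DESeq2 1.42.0 were run on recovered P2 reads as alternatives. In *Ror2* P5 control 1, 8070 genes on chromosomes 5 to 9 and X were set missing. Scripts were tested on simulated data. The 10 genes and all lists were chosen with earlier results of these data known; the named genes are the 10, and at most 4 per list, the largest changes past the threshold. Alternatives without single lungs for all lists were chosen after seeing the data. Same-numbered lungs of *Vangl2* P5 deviated together (r 0.384, 0.34 and 0.241 over genes), so the fit with the block is given beside the main one. The labels state no pairing, and these r values came from the tested data.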

Additional observations from a re-analysis of the deposited data

How the results depend on the processing

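Over all alternatives, 1202 of 1252 values of the 10 genes kept their direction and side of the threshold, 27 passed it and 23 changed direction; for the named list genes 185 of 276 stayed and 91 no longer passed. No replicate left out made any of the 10 pass at *Vangl2* P5 (0). The cause of these changes was not tested.

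The replicate block, a fit with the lung number as a block, called 3 of the 10 genes at *Vangl2* P2 (795 genes in all), 3 at *Vangl2* P5 (1558 genes, against 98 without it), 0 at *Ror2* P2 (1 gene) and 0 at *Ror2* P5 (1 gene), where *Icam1* turned to -0.043. It changed no call among the differences. Outside *Vangl2* P5 the same-numbered r was between -0.01 and 0.09 at *Vangl2* P2, 0.035 and 0.206 at *Ror2* P2, and -0.085 and 0.041 at *Ror2* P5. At *Ror2* P2 replicates 2 and 3 (0.206 and 0.119) were above their highest r with another number (-0.009 and -0.029). Replicate 1 (0.035) was not (0.04).

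Of all genes, limma without trend called 1, 4, 2 and 11 in *Vangl2* P2, *Vangl2* P5, *Ror2* P2 and *Ror2* P5, against 626, 98, 0 and 21. All 12 lungs of an age in 1 fit called 50, 1005 and 3 genes in *Vangl2* P2, *Vangl2* P5 and *Ror2* P5, and 2 of the 10 at *Vangl2* P5. At *Vangl2* P2 edgeR called 1 of the 10, and DESeq2 6 of the 10 and 2001 genes. At *Ror2* P2 DESeq2 called 3 of the 10 and 803 genes, and *Nfkbiz* turned to -0.073 in edgeR and -0.070 in DESeq2. With control 1 of *Ror2* P5 as deposited, 1 gene was called and *Bcl3* was at 2.46, where that lung is at 0. On the gene's strand only, 0 of 8 promoters held the C/EBP motif. Both count tools were not run at P5, where reads were not recovered in all lungs.

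Leaving out 1 lung at a time, the called members ranged from 0 to 5 at *Vangl2* P2 (genes 1 to 2308), from 0 to 2 at *Ror2* P2 (genes 0 to 849) and from 0 to 1 at *Ror2* P5 (genes 0 to 654), and the called genes from 0 to 53 at *Vangl2* P5 and 0 to 4 for *Vangl2* against *Ror2* at P5. Log2 differences that changed direction ranged from -0.42 to 0.070 for *Nfkbiz* at *Vangl2* P5, -0.25 to 0.40 for *Nfkbiz* and -0.51 to 0.87 for *Il6* at *Ror2* P2, and -0.043 to 0.22 for *Icam1* and -0.19 to 0.069 for *Bcl3* at *Ror2* P5. For *Vangl2* against *Ror2* at P2 they ranged from -0.045 to 0.50 for *Icam1*, -0.27 to 1.35 for *Bcl3* and -0.32 to 0.97 for *Socs3*. For P5 against P2 they ranged from -0.88 to 0.74 for *Bcl3* and -1.28 to 0.0065 for *Socs3* in *Vangl2*, and from -0.39 to 0.10 for *Nfkbia* in *Ror2*.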
